A study of Bos taurus with 12 samples.

Results

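CD163, CLEC4E, NCF4 and CEBPD are genes of monocytes, macrophages and neutrophils. They are described here through the CpG cytosines that the authors' deposited tables assign to them by gene symbol. These members number 104 of the 196275 listed CpG cytosines (sites), with 26 for CD163, 20 for CLEC4E, 36 for NCF4 and 22 for CEBPD. Of the 1227 listed windows of 500 bases (tiles), 0 were assigned to them. Of the member sites, 94 had a value in all 12 cows.

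The values are percent methylation of blood DNA from 12 cows kept on one farm under the same conditions, sampled at 1 time and then followed for 1 year. The mastitis susceptible group, MSG, held 6 cows that were culled within that year for complications of mastitis that had not been identified at sampling. The mastitis resilient group, MRG, held 6 cows that were still in the herd and were chosen for a similar age distribution. No treatment, allele, breed, age in numbers or blood cell count was given for either group. Replicate numbers only name cows. Averaged over all listed sites, cows ranged from 53.9% to 55.1% in MSG and from 51.8% to 54.0% in MRG. Blood is a mixture of cells, and a different share of a cell type cannot be told apart from a different methylation within it. The labelled tissue could not be checked against expressed markers, since only DNA was measured.

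CD163 is the scavenger receptor with which monocytes and macrophages take up haemoglobin bound to haptoglobin. CLEC4E, also called Mincle, is a C-type lectin receptor of myeloid cells that senses glycolipids of mycobacteria and fungi and products of dying cells. NCF4 is a cytosolic subunit of the phagocyte NADPH oxidase, the enzyme that makes superoxide against ingested microbes. CEBPD is a transcription factor of the C/EBP family that is induced during inflammation and takes part in myeloid differentiation. In blood cells, methylation at promoters and enhancers of such genes is often low in the cell type that uses them and high in the others.

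The authors listed a site only where MSG and MRG differed, so the difference between these groups is what chose the members and is given as a description without a test. In the authors' deposited table the absolute differences of the members ran from 25.3 to 61.7 percentage points, with q-values of 6.09e-12 to 0.00975. The smallest listed difference of any site was just over 25 points, and sites just under that limit were not analysed here. From here on a difference is the mean of the MSG cows minus the mean of the MRG cows, each cow counting once. A fit over the whole site table with limma, Benjamini-Hochberg adjusted, called 0 of the 196275 sites (0%) at an adjusted p of 0.05, and thus 0 of the 104 members. An unadjusted limma p under 0.05 was reached by 101964 of the 196275 sites and by 52 of the 104 members. The exact permutation test called 0 sites after adjustment (0%). The same limma fit called 73.3% of the tiles and the exact permutation test 17.4%, and the members had no tile. Tiles, like sites, were listed for this difference. The shares of tiles called and the unadjusted counts therefore follow largely from that choice.

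Of the 104 member sites, 72 (69.2%) were higher and 32 lower in MSG, against 52.7% higher over all listed sites. The genes did not share a direction. Higher in MSG were 25 of 26 CD163 sites, 30 of 36 NCF4 sites, 13 of 22 CEBPD sites and 4 of 20 CLEC4E sites. The median absolute difference was 32.1 points for the members and 32.7 points for all listed sites. The cows of the groups did not overlap at 4 member sites (3.85%), 2 of CD163, 1 of NCF4 and 1 of CEBPD, against 2.36% of all listed sites. That member count was 8 of 104 without MSG replicate 4 and 8 of 104 without MRG replicate 3. Over all listed sites the count of 4635 also rose, to 8371 and 7617 of 196275 with the same cows left out.

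**Figure D1:**
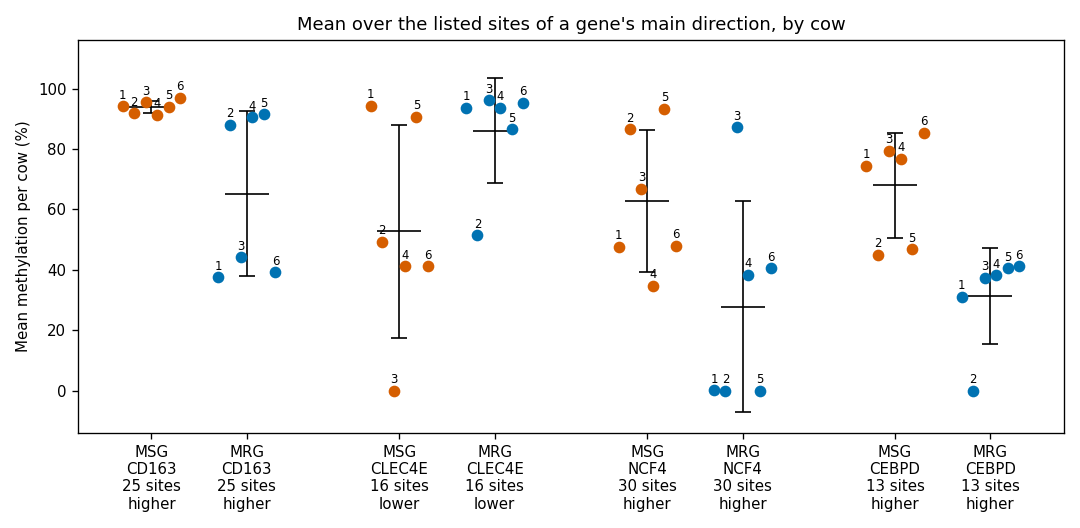
Mean methylation per cow (percent, vertical axis) over the listed sites of each gene's main direction, MSG to the left of MRG for each gene. Points are cows with their replicate number, horizontal bars are group means and whiskers are SD (n = 6 cows each). In CD163 the MSG cows lie within 91.4% to 96.9%, and MRG replicates 1, 3 and 6 lie under 45% while the other MRG cows overlap MSG or nearly reach it.

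Most of the sites lay outside the genes whose names they carry. Only 22 of the 104 were inside the model of the gene they are named for, 11 in CD163, 5 in CLEC4E, 6 in NCF4 and 0 in CEBPD. By the authors' annotation classes, 57 were distal intergenic, 36 intronic, 9 in promoters (within 3 kb of a start) and 2 exonic. The values therefore describe sequence around these genes more than the genes themselves.

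Sites around CD163 were nearly fully methylated in every MSG cow and split the MRG cows into separate levels. CD163 lies on chromosome 5 from 101786078 to 101818046 (ARS-UCD1.2, forward strand), and its sites spanned 39.1 kb, from 26.8 kb upstream of the start to 12.2 kb inside the gene. Averaged over the 25 sites higher in MSG, MSG cows had a lowest level of 91.4%, a median of 94.1% and a highest level of 96.9%. MRG cows had a lowest level of 37.6%, a median of 66.1% and a highest level of 91.5%. The means were 93.9% ± 2.09 for MSG and 65.1% ± 27.3 for MRG (SD, n = 6 each).

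The low CD163 values belonged to the same cows throughout. MRG replicates 1, 3 and 6 averaged 37.6%, 44.2% and 39.1%. MRG replicates 2, 4 and 5 averaged 88.0%, 90.4% and 91.5%, close to or within the range of MSG. At all 25 sites replicates 1, 3 and 6 were below each of the other 9 cows with a value. That order was met at 3492 of all 196275 listed sites (1.78%) and at 1461 of the 42667 with no cow at exactly 0 (3.42%). These shares count sites of both directions, whereas the 25 were all higher in MSG. The order was also taken from the CD163 values, so the shares are not a matched background. None of the 25 sites had a cow at 0, whereas 78.3% of all listed sites had one. The pooled difference of 28.8 points thus describes these 3 MRG cows and not the whole of MRG.

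**Figure D2:**
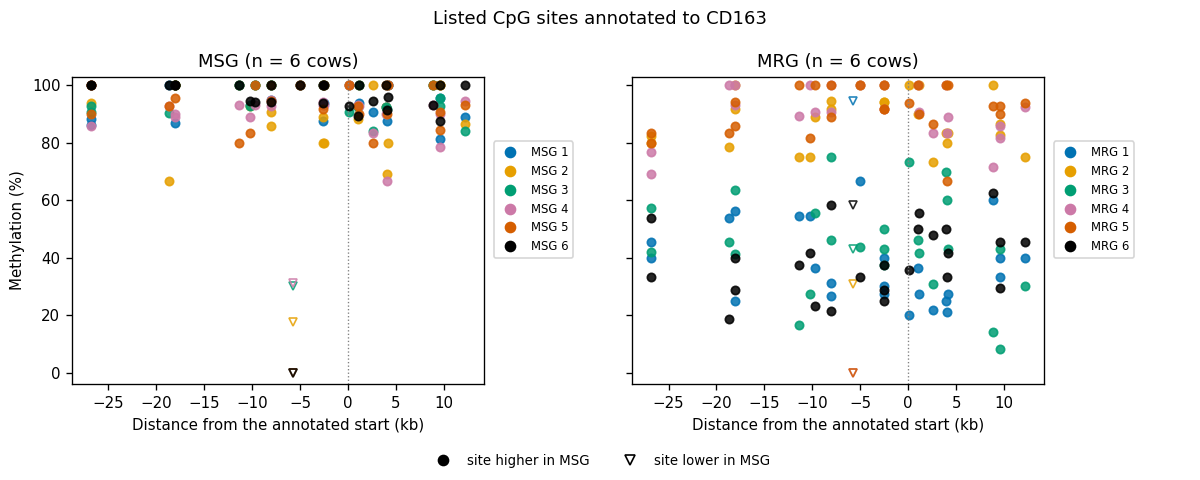
Percent methylation at each listed CD163 site (vertical axis) against its distance from the annotated start in kb (horizontal axis), for MSG (left) and MRG (right). Each colour is a cow, filled circles are sites higher in MSG and open triangles sites lower in MSG. The MRG cows with replicate numbers 1, 3 and 6 lie below the other cows at all 25 filled positions over 39.1 kb.

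The level was alike upstream, in the promoter and in the introns. The 11 intergenic sites averaged 95.3% ± 2.14 for MSG and 66.1% ± 26.4 for MRG. The 7 promoter sites averaged 93.6% ± 1.62 for MSG and 65.8% ± 30.6 for MRG, and the 7 sites in introns 3, 5 and 6 averaged 92.2% ± 2.96 for MSG and 63.2% ± 26.5 for MRG (SD, n = 6 each). The step between the cows was therefore not confined to the promoter.

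The promoter site nearest the CD163 start, at chromosome 5, position 101786147 on the - strand, lay 0.069 kb inside the transcript. It ran from 90.9% to 100% with a median of 100% in MSG, and from 20% to 100% with a median of 73.3% in the 5 MRG cows with a value. The promoter site at 101787062, 0.984 kb inside, ran from 88.2% to 93.3% (median 92.6%) in MSG and from 36.4% to 100% (median 70%) in MRG. At both sites the groups overlapped through the MRG cows that were high.

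The promoter sites 1 to 3 kb from the CD163 start repeated this picture. At 101787185 (1.11 kb inside) the means were 96.1% ± 4.45 for MSG and 67.6% ± 30.1 for MRG. At 101788645 (2.57 kb inside) they were 88.8% ± 7.64 for MSG and 57.3% ± 27.8 for MRG. Upstream, the sites at 101783501, 101783502 and 101783517 had means of 93.5% (5 cows), 93.6% and 94.5% in MSG and of 63.0%, 62.9% (5 cows) and 64.9% in MRG. Highest MRG values of 100% at these upstream positions kept the groups overlapping.

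The groups did not overlap at the CpG farthest from CD163, 26.8 kb upstream. Its + cytosine at 101759232 ran from 85.7% to 100% (median 92.3%) in MSG and from 33.3% to 80% (median 63.2%) in MRG. Its - cytosine at 101759233 ran from 88.2% to 100% (median 96.4%) in MSG and from 42.1% to 83.3% (median 65.4%) in MRG. The MRG cows that were high elsewhere stood a little lower here. The widest CD163 difference, 33.4 points, was at 101774684, with a mean of 95.6% ± 8.07 for MSG and 62.2% ± 31.8 for MRG.

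A single CD163 site ran the other way. At 101780307 (- strand, 5.77 kb upstream) MSG cows had a lowest value of 0%, a median of 8.82% and a highest value of 31.2%, and MRG cows had 0%, 36.8% and 94.7%. MRG replicate 1 held the highest value, and MSG replicates 1, 5 and 6 and MRG replicates 4 and 5 were at 0.

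CLEC4E showed the opposite direction with a different set of cows. It lies next to CD163 on chromosome 5 and is read from the reverse strand. The authors' table gives it a model from 101675072 to 101710556 for 15 sites and a model from 101699354 to 101709804 for the other 5. Its 16 sites lower in MSG spanned introns 2 and 3 and sequence up to 37.4 kb upstream. Over these, MSG cows had a lowest level of 0%, a median of 45.2% and a highest level of 94.2%. MRG cows had a lowest level of 51.4%, a median of 93.6% and a highest level of 96.2%. The means were 52.7% ± 35.3 for MSG and 86.1% ± 17.3 for MRG (SD, n = 6 each), and the groups overlapped.

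On average over these 16 sites, the CLEC4E cows stood at 3 levels. MSG replicate 3 was at exactly 0 at all 16 sites. MSG replicates 2, 4 and 6 averaged 49.3%, 41.1% and 41.2%, and MRG replicate 2 averaged 51.4%. MSG replicates 1 and 5 averaged 94.2% and 90.7%, and the other 5 MRG cows ran from 86.5% to 96.2%. At 13 of 16 sites MSG replicates 2, 4 and 6 and MRG replicate 2 were below the other cows but MSG replicate 3. The levels thus describe averages and did not hold at every site. On these averages MSG held cows at each level, and MRG had none at the lowest.

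The widest CLEC4E difference was -42.0 points at 101735417 (+ strand, 24.9 kb upstream). It ran from 0% to 100% (median 39.3%) in MSG and from 53.8% to 100% (median 100%) in MRG. This site opened the gene's longest run of listed sites less than 1 kb apart, 5 sites over 1595 bases, all lower in MSG. The run averaged 55.5% ± 38.0 for MSG and 90.1% ± 18.0 for MRG.

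**Figure D3:**
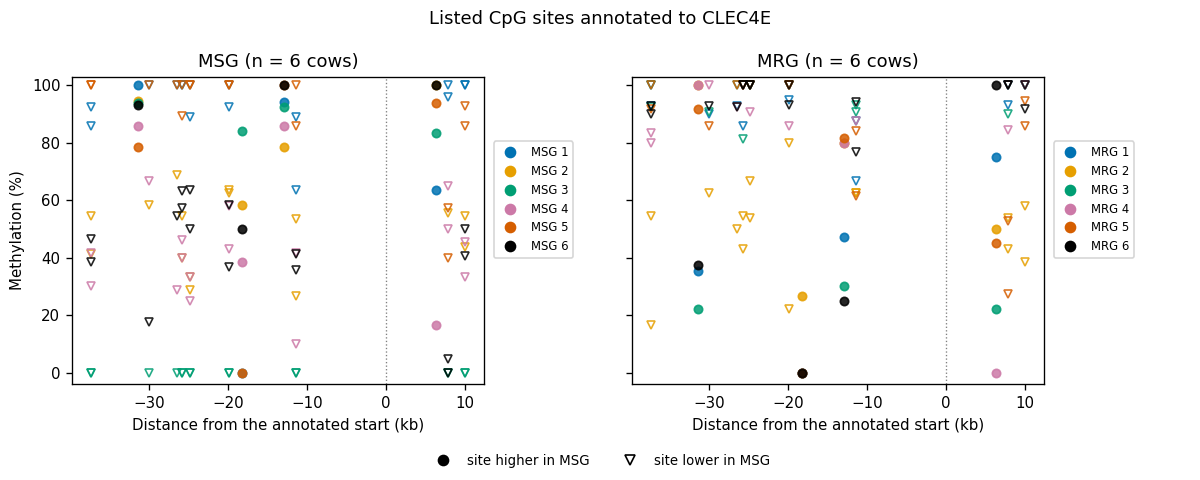
Percent methylation at each listed CLEC4E site (vertical axis) against distance from the annotated start in kb (horizontal axis), for MSG (left) and MRG (right). Each colour is a cow, filled circles are sites higher in MSG and open triangles sites lower in MSG. MSG replicate 3 lies at 0 at all 16 triangles, and MRG replicate 2 is the lower cow of MRG at most of them.

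Of the 4 CLEC4E sites higher in MSG, a pair carried the cow order of CD163. At 101723481 (12.9 kb upstream) values ran from 78.6% to 100% (median 93.2%) in MSG and from 25% to 81.8% (median 63.5%) in MRG. At 101741920 (31.4 kb upstream) they ran from 78.6% to 100% (median 93.5%) in MSG and from 22.2% to 100% (median 64.6%) in MRG. At both, MRG replicates 1, 3 and 6 were below the other 9 cows and no cow was at 0. The nearest CLEC4E sites lower in MSG, at which MSG replicate 3 was at 0, were 1482 and 1305 bases away. Both orders of cows thus lay interleaved on one stretch of chromosome 5.

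At the higher CLEC4E site 101728810 the order of the lower sites was turned round. MSG cows ran from 0% to 84.2% (median 44.2%) and MRG cows from 0% to 26.7% (median 0%). MSG replicate 3 was the highest cow, MSG replicates 2, 4 and 6 and MRG replicate 2 were above 0, and the other cows were at 0. The site at 101703471, in intron 2, followed neither order. There MSG cows ran from 16.7% to 100% (median 88.5%) and MRG cows from 0% to 100% (median 47.5%).

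NCF4 sites were mostly higher in MSG, with some MRG cows at zero. NCF4 lies on chromosome 5, forward strand, in models from 75265852 to 75284401 (11 sites) and from 75269036 to 75284230 (25 sites). Its sites spanned 65.3 kb from 29.2 kb upstream to 32.9 kb past a start. Over the 30 sites higher in MSG, MSG cows had a lowest level of 34.7%, a median of 57.3% and a highest level of 93.3%. MRG cows had a lowest level of 0%, a median of 19.3% and a highest level of 87.1%. The means were 62.8% ± 23.5 for MSG and 27.7% ± 34.9 for MRG (SD, n = 6 each).

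MRG replicates 2 and 5 were at exactly 0 at all 30 of these sites, and MRG replicate 1 at 29 of 30. MRG replicates 4 and 6 averaged 38.4% and 40.5%, and MRG replicate 3 averaged 87.1%. In MSG, replicates 2 and 5 averaged 86.5% and 93.3%, replicate 3 averaged 66.8%, and replicates 1 and 6 averaged 47.6% and 47.9%. High, middle and near-zero cows were thus all found in MRG, and the groups overlapped.

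MSG replicate 4 changed level along NCF4. It was at exactly 0 at the 8 higher sites lying over 10 kb upstream and averaged 47.3% over the 22 from 2.17 kb upstream onwards. The last site at 0, at 75247075, and the next higher site, at 75263685, were 16.6 kb apart. Over the upstream 8 sites the means were 60.6% ± 35.9 for MSG and 29.8% ± 38.4 for MRG. Over the other 22 they were 63.7% ± 20.6 for MSG and 27.1% ± 33.9 for MRG.

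**Figure D4:**
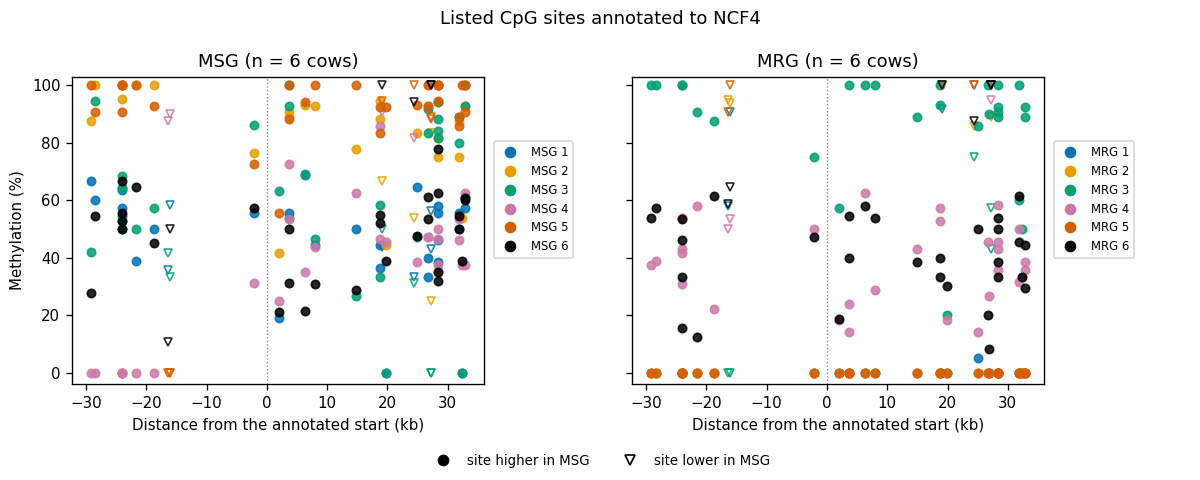
Percent methylation at each listed NCF4 site (vertical axis) against distance from the annotated start in kb (horizontal axis), for MSG (left) and MRG (right). Each colour is a cow, filled circles are sites higher in MSG and open triangles sites lower in MSG. MSG replicate 4 is at 0 at the 8 leftmost filled positions, and MRG replicates 2 and 5 are at 0 at all 30 filled positions.

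The NCF4 promoter site 2.17 kb upstream (75263685, + strand) ran from 31.2% to 86.4% (median 64.9%) in MSG and from 0% to 75% (median 23.5%) in MRG. The promoter site 1.96 kb inside the shorter model (75270992, - strand) was lower in both groups, from 19.0% to 63.2% (median 33.3%) in MSG and from 0% to 57.1% (median 9.09%) in MRG. MRG replicate 3 was the high cow of MRG at both.

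Exon 3 held both cytosines of 1 CpG and the largest difference among the members. The - cytosine at 75272706 ran from 50% to 100% (median 71.9%) in MSG and from 0% to 40% (median 0%) in 5 MRG cows, a difference of 61.8 points without overlap. The + cytosine at 75272705 ran from 31.2% to 100% (median 81.8%) in MSG and from 0% to 100% (median 11.9%) in 6 MRG cows, a difference of 43.9 points. MRG replicate 3 stood at 100% on the + strand and had no value on the - strand. The lack of overlap at 75272706 therefore holds for the 5 MRG cows read there.

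The 6 NCF4 sites lower in MSG averaged 56.4% ± 24.6 for MSG and 80.9% ± 23.2 for MRG. The widest, -29.5 points at 75249456 (16.4 kb upstream), ran from 0% to 87.5% (median 23.1%) in MSG and from 0% to 95% (median 58.4%) in MRG. At the 2 lower sites upstream of the gene the cow order was turned round, with MSG replicates 2 and 5 and MRG replicate 3 at 0 and MSG replicate 4 averaging 88.8%. The longest run of NCF4 sites under 1 kb apart held 5 sites over 1050 bases, 31.9 to 32.9 kb past the start. It averaged 65.4% ± 19.97 for MSG and 26.5% ± 32.2 for MRG.

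The order of cows seen at NCF4 was also present at its neighbours on chromosome 5. CSF2RB, which encodes the shared beta chain of the receptors for granulocyte-macrophage colony-stimulating factor, interleukin 3 and interleukin 5, had 30 of 32 sites higher in MSG. They averaged 62.6% ± 21.9 for MSG and 28.0% ± 34.2 for MRG, with MRG replicates 1, 2 and 5 at 0%, 0.278% and 0%. PVALB, the parvalbumin gene, had 9 of 9 sites higher, at 62.9% ± 29.2 for MSG and 32.3% ± 35.0 for MRG. There MSG replicate 4 averaged 15.5%.

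The sites that carry the name CEBPD lay in another gene. CEBPD itself spans 1595 bases on chromosome 14, from 19128179 to 19129773 (forward strand), and held no listed site. Of its 22 sites, 21 lay 14.5 to 134 kb downstream, in introns 8, 10, 11 and 16 of the transcript whose gene identifier the authors' table pairs with SPIDR, a DNA repair gene. The remaining site lay 8.99 kb upstream. These values describe introns of SPIDR and intergenic sequence near CEBPD.

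Of the CEBPD sites, 13 were higher in MSG. Over these, MSG cows had a lowest level of 45.0%, a median of 75.6% and a highest level of 85.3%. MRG cows had a lowest level of 0%, a median of 37.8% and a highest level of 41.1%. The means were 68.0% ± 17.5 for MSG and 31.4% ± 15.8 for MRG (SD, n = 6 each). The cows of the groups overlapped at each of the 13 single sites. Their averages did not, but these were taken over sites chosen for being higher in MSG, so nothing is read from that.

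MRG replicate 2 was at exactly 0 at all 13 sites, and the other MRG cows averaged 31.0% to 41.1%. MSG replicates 2 and 5 averaged 45.0% and 46.9%, and the other 4 MSG cows 74.4% to 85.3%. The widest difference upward, 48.0 points at 19218815 (- strand, 90.6 kb from the CEBPD start, intron 10), ran from 44.4% to 89.5% (median 83.1%) in MSG and from 0% to 50% (median 23.4%) in MRG.

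The 9 CEBPD sites lower in MSG averaged 41.8% ± 17.8 for MSG and 74.6% ± 11.3 for MRG. MSG replicate 3 was at 0 at 4 of them and MSG replicate 6 at 5. The widest was -41.0 points at 19144756 (16.6 kb from the start, intron 16), from 0% to 88.9% (median 38.7%) in MSG and from 57.1% to 100% (median 86.3%) in MRG. It and the site at 19144842 made up the longest run under 1 kb, which averaged 38.9% ± 29.6 for MSG and 79.1% ± 15.3 for MRG. At 19159308 (31.1 kb, intron 11) the groups did not overlap, with 0% to 53.8% (median 41.9%) in MSG and 54.5% to 100% (median 65.7%) in MRG. The gap there was under 1 point, between the highest MSG cow and the lowest MRG cow.

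**Figure D5:**
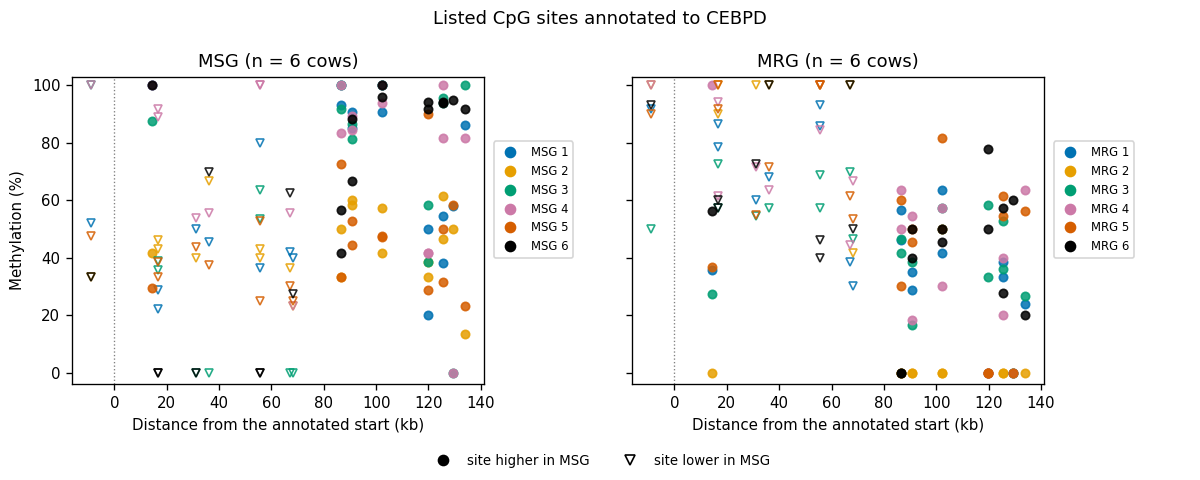
Percent methylation at each listed CEBPD site (vertical axis) against distance from the annotated CEBPD start in kb (horizontal axis), for MSG (left) and MRG (right). Each colour is a cow, filled circles are sites higher in MSG and open triangles sites lower in MSG. No point lies within the gene itself, and MRG replicate 2 is at 0 at all 13 filled positions.

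Readings of the same CpG on the opposite strands were close within a cow. Both cytosines were listed for 27 member CpGs, and their values differed by a median of 6.59 points over 315 pairs of values. Over the 43073 CpGs listed on both strands the median was 5.56 points. A difference of at most 20 points was found for 86.98% of the member pairs and 86.7% of all pairs. Both strands had to be listed for their difference between the groups to enter these counts.

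The level at which cows sat varied by gene. A cow was at exactly 0 at 1 of 26 CD163 sites, 18 of 20 CLEC4E sites, 34 of 36 NCF4 sites and 21 of 22 CEBPD sites. Values over 75% made up 68.9% of the CD163 values, 54.0% for CLEC4E, 30.4% for NCF4 and 28.0% for CEBPD, against 37.5% over all listed sites. The median SD between cows at a CD163 site was 5.75 points in MSG and 30.2 points in MRG, whereas at a CLEC4E site it was 36.7 points in MSG and 18.7 points in MRG. The set of lowest cows varied by gene and shared some cows, with MRG replicates 1, 3 and 6 for CD163, MSG replicate 3 for CLEC4E, MRG replicates 1, 2 and 5 for NCF4 and MRG replicate 2 for CEBPD. MRG replicate 2 was also the lowest MRG cow for CLEC4E.

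Genes with the cow order most like that of each member were picked by Pearson's r over the 12 cows, after the mean of each group was subtracted. Candidates were 2961 other genes with at least 10 sites of their main direction. Since the cows sat at separate levels, r mainly records which cows were low, and it is a description. For CD163 the closest were DMC1 on chromosome 5 (r = 0.99) and PLEKHG3 and MAX on chromosome 10 (r = 0.98 each), and 13 genes exceeded 0.9. DMC1, a recombinase of meiosis, averaged 96.6% ± 1.11 for MSG and 68.7% ± 28.6 for MRG over 10 sites. There MRG replicates 1, 3 and 6 stood at 43.5%, 41.1% and 43.3%, and the lowest of the other cows at 92.4%. PLEKHG3 averaged 91.3% ± 2.92 for MSG and 63.2% ± 25.6 for MRG over 41 sites, with the same 3 cows at 38.1% to 41.8%. MAX, the partner of the MYC transcription factor, averaged 93.2% ± 1.98 for MSG and 64.9% ± 24.7 for MRG over 18 sites. PLEKHG3 and MAX lie on another chromosome but were picked for this likeness, so the same cows being low there follows from the choice.

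For CLEC4E the closest genes were GRB10 and FBXL13 on chromosome 4 (r = 0.89 each) and ARHGAP15 on chromosome 2 (r = 0.87). With group means subtracted, r does not match direction. The 19 GRB10 sites were higher in MSG, at 56.8% for MSG and 24.4% for MRG, unlike the CLEC4E sites lower in MSG. The FBXL13 sites were lower in MSG. ARHGAP15 had MSG replicate 3 at 0.188% over its 38 sites lower in MSG. For NCF4 the closest lay within 1 Mb, CSF2RB (r = 0.98) and TEX33 (r = 0.94). The closest farther away were LOC112449649 on chromosome 14 (r = 0.83) and ATRNL1 and MGMT on chromosome 26 (r = 0.81 and r = 0.80). For CEBPD they were SNAI2 (r = 0.84) within 1 Mb, and GLB1 on chromosome 22, WNT7B on chromosome 5 and COPS8 on chromosome 3 farther away (r = 0.83, r = 0.83 and r = 0.81). Of the 2961 genes, 5% exceeded an r of 0.57 for CD163, 0.51 for CLEC4E, 0.54 for NCF4 and 0.51 for CEBPD.

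Genes that work with the members were read through lists of their pathways. In none did a site pass limma after adjustment, and all counts rest on sites listed for their difference. The medians given for the lists keep the sign of each difference. They therefore depend on the share of sites higher in MSG and do not compare the size of differences. Taken over every listed site, the signed median came to 22.7 points, with 52.7% of sites higher. With the sign ignored, the median rose to 32.7 points, above the signed median of each pathway list. Of 14 scavenger receptor and haemoglobin clearance genes, 10 had 247 sites, 202 higher and 45 lower in MSG, with a median difference of 31.0 points. CD163L1, a relative of CD163 in the same receptor family, held 85 of them, 82 higher. Family members with similar sequence can share reads, so its count is uncertain. MSR1, a macrophage receptor for modified lipoproteins, had 36 of 52 higher, STAB2, a hyaluronan receptor, 14 of 14, and STAB1 0 of 7.

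Of 16 genes of C-type lectin sensing, 10 had 69 sites, 44 higher and 25 lower, with a median difference of 28.0 points. Without CLEC4E, 40 of 49 were higher. MALT1 and BCL10, which carry the signal of such receptors to NF-kappaB, had 16 of 16 and 10 of 14 sites higher, and SYK, the kinase upstream of them, 3 of 3. Of 11 NADPH oxidase genes, 7 had 72 sites, 50 higher and 22 lower, with a median difference of 30.3 points. Without NCF4, 20 of 36 were higher. The GTPase RAC1, which takes part in activating the enzyme, had 0 of 11 sites higher. Of 14 C/EBP factors and partners, 4 had 50 sites, 36 higher and 14 lower, with a median difference of 28.7 points. RUNX1, a regulator of blood cell formation, had 16 of 19 higher and GFI1, a repressor needed for neutrophils, 7 of 8.

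Markers of blood cell types held listed sites in part. Of 9 monocyte markers, 3 had 29 sites, 26 of them higher, with none for CD14, CSF1R or FCGR1A. CD163 held 26 of the 29 sites, and without it 1 of 3 was higher. Cows averaged 84.1% to 93.3% in MSG and 43.5% to 86.5% in MRG, mostly over the CD163 sites. Of 9 neutrophil markers only MPO, myeloperoxidase, had sites, 9 of 10 higher, at 76.2% to 86.3% in MSG and 7.14% to 86.4% in MRG. B cell markers had 24 of 33 sites higher (5 of 7 genes), at 68.3% to 81.6% in MSG and 39.4% to 77.8% in MRG. BANK1 held 25 of these sites, 19 higher and 6 lower. T cell markers had 147 of 205 higher (7 of 10 genes), at 56.6% to 71.4% in MSG and 41.3% to 51.9% in MRG. LEF1 and THEMIS held 69 sites each, 54 and 50 of them higher, whereas CD4 had 0 of 12 higher. NK cell markers had 20 of 25 higher (4 of 6 genes), at 56.9% to 75.6% in MSG and 22.5% to 51.9% in MRG. NCR1 held 14 of these sites, 11 higher and 3 lower. Erythroid and platelet markers had 82 of 184 higher (3 of 7 genes), at 40.3% to 69.5% in MSG and 41.9% to 69.9% in MRG. GYPC held 162 of these sites, 70 of them higher, while SPTB had 5 of 5 and VWF 7 of 17 higher. Counts of these lists thus rest largely on single genes. Every range pools sites that were listed for their difference between the groups. In all but the erythroid and platelet list most of these sites were higher in MSG. Nothing is therefore read from ranges that do not overlap, as for the T cell and NK cell markers. The part of blood cell types in the differences at the 4 genes was not tested.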

How the data were processed

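DNA of whole blood was read by enzymatic methylation sequencing, in which TET2 and T4-BGT shield modified cytosines while APOBEC3A converts the rest, as the labels' protocols state. Methylated and hydroxymethylated cytosines are read alike, and a genomic thymine at the site would be read as an unmethylated cytosine. Cows' genotypes were not analysed here. The submitters' processing notes name fastp 0.23.1, Bismark, DRAGEN, ChIPseeker 1.32.1 and the build ARS-UCD1.2, with no role or order. Which differential test was used is not given in the sources used here. Per the file headers, the deposited values are percent methylation of every cow, for sites by strand and for tiles. The deposited tables also hold the authors' p-value and q-value, and the authors' difference, a signed score in percentage points. The deposited tile table holds 36 columns of read counts whose names carry numbers and not cows, and these were not used. The depth behind each value is therefore unknown here, and precision rests on the spread between cows. The logistic test foreseen for counts was replaced by limma on percent values.

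Members were the rows whose symbol was CD163, CLEC4E, NCF4 or CEBPD. The members and gene lists were chosen with earlier results of these data known. All sites and all tiles were fitted with limma 3.58.1 in R 4.3.3, 6 MSG against 6 MRG cows, with no covariate and Benjamini-Hochberg adjustment over the table. An exact permutation test over regroupings of the cows was the alternative. Simulated data with known changes were also passed through the limma fit. They were normal draws with each row's own spread, unlike bounded percent values, so nothing is read from them here. Tables were summarised in Python 3.11.15 with pandas 2.3.3. A missing value was left out of a cow's mean. The named sites were each member's promoter and exon sites, its widest difference in each direction, its sites without overlap and its longest run. The 2 CLEC4E sites at 101728810 and 101703471, the CLEC4E site at 101741920 and the neighbouring genes were chosen after their values were seen. Distances run from the start that the authors' table gives for each site, and a member with 2 models has 2 starts.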

Additional observations from a re-analysis of the deposited data

Results flagged for a closer look

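In all, 56 groups of 5 or 6 cows were examined for a cow standing far from the rest of its group, for the mean per cow of each gene and direction and for each named site. Chance flags about 1 in 20 independent groups, but these groups share sites and cows and many sites were named for their differences, so the number of cows standing apart cannot be set against that share. MRG replicate 2 stood apart over the CLEC4E sites lower in MSG, at 51.4% against 86.5% to 96.2% in the other MRG cows, and at the CLEC4E site 24.9 kb upstream, at 53.8% against 90.9% to 100%. It also stood apart over the CEBPD sites higher in MSG, at 0% against 31.0% to 41.1%. MRG replicate 3 stood apart over the NCF4 sites lower in MSG, at 35% against 83.1% to 98.5%, and at the NCF4 promoter site 1.96 kb inside the gene, at 57.1% against 0% to 18.8%. In MSG, replicate 5 at the CD163 site 11.4 kb upstream (80% against 93.3% to 100%) and replicate 2 at the CD163 promoter site 2.56 kb upstream (80% against 93.3% to 100%) were the lowest cows.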

How the results depend on the processing

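No paired analysis was possible because the replicate numbers only name cows. Sites were listed for their difference between the groups and averaged by direction, so a kept direction says nothing about stability. Leaving out 1 cow gave differences of 23.3 to 34.1 points for CD163, -41.6 to -22.8 for CLEC4E, 29.0 to 47.0 for NCF4 and 30.3 to 41.2 for CEBPD. Member sites higher in MSG numbered 72 with any 1 cow left out, which their choice largely fixes. The count was 27 of 30 at sites with no cow at 0, 25 of them from CD163, 11 of 13 at differences of at least 40 points and 30 of 38 inside a gene or within 10 kb. Of the sites with no cow at 0, 0 of 2 for NCF4 and 0 of 1 for CEBPD were higher. Some settings left a gene with no site, so gave no value. Member sites without overlap numbered 4 of 104 in all, 4 to 8 of 104 with 1 cow left out and 2 of 30 with no cow at 0. All listed sites without overlap numbered 4635 of 196275 in all, 7249 to 8602 of 196275 with 1 cow left out and 2219 of 42667 with no cow at 0. Tiles passing limma numbered 899 in all, 397 to 797 with 1 cow left out (397 to 498 without MSG replicates 1, 2, 3 or 6 or MRG replicates 1, 2 or 5) and 213 by the exact permutation test. Sites passing limma numbered 0 to 74 with 1 cow left out, 74 without MSG replicate 6, 1 without MSG replicate 4 and 0 without any other cow. Unknown depth limits the reading of each single value, including values of exactly 0.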

Other observations

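CLEC6A and CLEC4A, C-type lectin receptor genes beside CLEC4E on chromosome 5, had few listed sites. CLEC6A, which encodes the receptor for fungal mannans, had 3 sites higher in MSG, at 69.6% ± 10.7 for MSG and 40.8% ± 25.04 for MRG, and 4 lower, at 12.5% ± 5.40 for MSG and 45.6% ± 24.9 for MRG (SD, n = 6 each). MRG replicate 1 was at 0% over the higher sites and at 84.2% over the lower ones. CLEC4A, an inhibitory receptor of dendritic cells, had 2 of 2 sites higher, at 76.8% ± 13.7 for MSG and 42.5% ± 27.3 for MRG.

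SPIDR had 3 sites under its own name, beyond those listed for CEBPD. The site higher in MSG stood at 73.5% ± 21.3 for MSG and 38.1% ± 22.1 for MRG, with MRG replicate 2 at 0%, as it was at the 13 CEBPD sites higher in MSG. The 2 lower sites averaged 65.4% ± 29.0 for MSG and 96.1% ± 3.33 for MRG.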
